A study of Mus musculus with 8 samples.

Results

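The TRAV9 family is a group of T cell receptor alpha variable segments, known in mice as Valpha3. Its members were taken here as every productive TRA contig whose deposited V call began with TRAV9-, TRAV9D- or TRAV9N-. This gave 670 of 5997 TRA contigs, carried by 666 of 5488 cells with a TRA chain and by 353 of 3721 clonotypes with a TRA chain. The contigs named 8 segments, and 4 cells held 2 TRAV9 contigs. Receptor libraries came from C57BL/6 mice of 2 genotypes, with 2 libraries of 5xFAD;Cxcr6-/- mice and 2 of 5xFAD mice. In each case CD45+ immune cells had been sorted from brain parenchyma. Both genotypes carry the 5xFAD transgenes, which encode human amyloid precursor protein and presenilin 1 with familial Alzheimer's disease mutations. The 5xFAD;Cxcr6-/- mice also lack CXCR6, a receptor for the chemokine CXCL16 that marks resident T cells of many tissues, and the series asks how it bears on T cells of the brain. No library of mice without the transgenes was analysed here, and the labels give no ages.

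A T cell builds its alpha chain by joining 1 V segment to 1 J segment, with bases trimmed and added at the join. The V segment encodes the CDR1 and CDR2 loops, which mostly touch the MHC molecule, and the start of CDR3, which mostly touches the peptide. A locus can recombine again after a first join, and each further round removes V and J segments lying between the joined pair, so V segments near the J array tend to be joined to J segments at its near end. In mice, amino acids in CDR1 and CDR2 of Valpha3 are known to influence whether a T cell becomes a CD4 or a CD8 cell. Lineage cannot be read from receptor chains and was not assigned here.

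The 5xFAD;Cxcr6-/- libraries held 765 and 1330 cells with 13460 and 22340 UMIs, against 2069 and 2522 cells with 32169 and 34772 UMIs in the 5xFAD libraries. TRAV9 contigs had a median of 4 and 4 UMIs in the 5xFAD;Cxcr6-/- libraries and 3 and 3.5 in the 5xFAD libraries, where other TRA contigs had 4 in each library. Cells with a TRB chain but no TRA chain made up 15.7% and 15.6% of TRB-positive cells in the 5xFAD;Cxcr6-/- libraries and 20.4% and 19.1% in the 5xFAD libraries. In all, 28 barcodes occurred in more than 1 library, 7 of them in TRAV9 cells, and 0 of the 28 carried the same chain in both. Chains of invariant natural killer T cells, here TRAV11 or TRAV11D joined to TRAJ18, were held by 5.15% and 2.44% of clonotypes in the 5xFAD;Cxcr6-/- libraries and 19.98% and 12.8% in the 5xFAD libraries. They enlarge the denominator of shares below that are taken over all clonotypes or all cells with a TRA chain. Of the 353 TRAV9 clonotypes, 2 held one as a second chain. The labels do not say whether libraries of a genotype came from separate mice, so a p-value here covers the spread between libraries, which may be technical.

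The germline segments are shown first because the family is defined by them, and the CDR1 and CDR2 loops are where its copies differ in the parts that contact MHC. Sequences are the most frequent CDR1 and CDR2 of the deposited contigs of each segment, read 5′ to 3′. The most frequent V region of each segment was identical to that of a GENCODE vM21 transcript of GRCm38. Capitals mark bases that differ from the most frequent base at that position among the segments shown for that loop.
TRAV9D-1 CDR1: taTGGtggATcCATttaC
TRAV9D-2 CDR1: tCctctgggacaccttat
TRAV9D-3 CDR1: tactTtgggacaccttat
TRAV9D-4 CDR1: tactctgCgacaccttat
TRAV9N-4 CDR1: tactctgCgacaccttat
TRAV9-1 CDR1: taTGGtggATcCATttaC
TRAV9-2 CDR1: tactctgggacaccttat
TRAV9-4 CDR1: tactctgggacGccttat
TRAV9D-1 CDR2: tactattcGggaAacccagtggtt
TRAV9D-2 CDR2: tactattcCggagacccagtggtt
TRAV9D-3 CDR2: tactatCcaggagacccagtggtt
TRAV9N-4 CDR2: tactattcaggagacccagtggtt
TRAV9-1 CDR2: tactattcGggaAacccagtggtt
TRAV9-2 CDR2: tactattcaggagacccagtggtt
TRAV9-4 CDR2: tactattcCggagacccagtggtt
TRAV9-1 and TRAV9D-1 had the same CDR1 and the same CDR2, and their CDR1 differed at 9 of 18 bases from the most frequent form. Over the 270 bases of V region that could be compared, these segments differed from each other at 2 bases and from the other segments at 48 to 52. The other segments differed among themselves at 4 to 9 bases, an identity of 96.7% to 98.5%. The family as sampled in these brains therefore held 2 sequence groups, the smaller one carried by 52 clonotypes as TRAV9-1 and by 23 as TRAV9D-1. TRAV9D-3 differed from the most frequent form at C5T in CDR1 and T7C in CDR2, with positions counted from the first base of each loop. The contigs of TRAV9D-4 matched only 240 bases of V region, and no CDR2 was taken from them.

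The 8 segments lie on the plus strand of chromosome 14 (GRCm38), spread over the stretch that holds duplicated blocks of TRAV genes. TRAV9D-1 is at 52792316 to 52792777, TRAV9D-2 at 52892186 to 52892618, TRAV9D-3 at 52920443 to 52921112 and TRAV9D-4 at 52983201 to 52983860. TRAV9N-4 is at 53294341 to 53295030, TRAV9-1 at 53488045 to 53488567, TRAV9-2 at 53590857 to 53591514 and TRAV9-4 at 53676141 to 53676630. All 8 are annotated as functional V genes, and TRAV9-4 is the nearest to the first TRAJ segment, at a distance of 478 kb, against 1362 kb for TRAV9D-1. The annotation also holds TRAV9N-1, a pseudogene, and TRAV9N-2 and TRAV9N-3, none of which was named in a contig. The V region of TRAV9D-2 is identical to that of TRAV9N-2, and the V region of TRAV9D-3 to that of TRAV9N-3. Contigs labelled TRAV9D-2 or TRAV9D-3 can therefore come from either copy.

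Counted by clonotype, the share of the family did not differ detectably between genotypes, but the size of the difference depended on the denominator. TRAV9 clonotypes were 9.69% (95% interval 7.21% to 12.7%, 47 of 485) and 8.88% (7.10% to 10.9%, 80 of 901) of clonotypes in the 5xFAD;Cxcr6-/- libraries. They were 8.86% (7.22% to 10.7%, 94 of 1061) and 10.4% (8.74% to 12.2%, 132 of 1274) in the 5xFAD libraries. With every clonotype in the denominator the ranges of the genotypes overlapped, with means of 9.28% ± 0.574 and 9.61% ± 1.06 (SD, n = 2 each). The difference of −0.325 percentage points was not significant in an exact two-sided permutation test (p = 1), where 2 libraries against 2 cannot give a p below 0.333. Without clonotypes that held an invariant natural killer T chain, the shares were 10.2% and 9.10% in the 5xFAD;Cxcr6-/- libraries and 10.95% and 11.8% in the 5xFAD libraries. The genotypes then did not overlap, with a difference of −1.71 percentage points and the smallest possible exact permutation p of 0.333. The intervals are Clopper-Pearson and cover counting error only.

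The fit across TRAV families called no difference in TRAV9. Relative to the total of clonotypes with a TRA chain, TRAV9 clonotypes differed by a log2 fold change of −0.07 (SE 0.17) in 5xFAD;Cxcr6-/- over 5xFAD libraries. The adjusted p was 0.939 in edgeR's quasi-likelihood test over 19 families. Without invariant natural killer T clonotypes the log2 fold change was −0.27, with an edgeR adjusted p of 0.898. With every clonotype counted, 5.26% of families were called, namely TRAV11, the family of invariant natural killer T cells, and TRAV9 was not among them. Without invariant natural killer T clonotypes 0 families were called. Of the 13 families with at least 50 clonotypes, those whose log2 shares over the 4 libraries lay nearest to TRAV9 were TRAV13 (distance 0.106), TRAV16 (0.307) and TRAV6 (0.316). The distance was Euclidean after centring, and TRAV11 lay farthest at 2.23.

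Counted by cell, the family stood much higher in 1 library. TRAV9 chains were found in 9.10% (7.003% to 11.6%, 59 of 648) and 8.43% (6.87% to 10.2%, 95 of 1127) of cells with a TRA chain in the 5xFAD;Cxcr6-/- libraries. They were found in 17.6% (15.8% to 19.6%, 292 of 1656) and 10.7% (9.39% to 12.1%, 220 of 2057) of such cells in the 5xFAD libraries. The means were 8.77% ± 0.478 in 5xFAD;Cxcr6-/- and 14.2% ± 4.91 in 5xFAD libraries (SD, n = 2 each), a difference of −5.40 percentage points, and the genotypes did not overlap. The family was chosen with this contrast known, so it is given as a description with no test.

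Leaving out 1 clonotype per library took the excess of cells over clones away. With the largest clonotype of every library left out, the share of cells was 9.82% and 8.63% in the 5xFAD;Cxcr6-/- libraries and 7.02% and 8.15% in the 5xFAD libraries. The order of the genotypes was then turned round, with a difference of 1.64 percentage points. With only the largest TRAV9 clonotype left out, the shares were 8.85% and 7.77% against 7.02% and 8.15%, and the genotypes overlapped. Divided by the share of clonotypes, the share of cells was 0.940 and 0.949 times as large in the 5xFAD;Cxcr6-/- libraries, and 1.99 and 1.03 times as large in the 5xFAD libraries. Without the largest clonotype, which was TRAV9 only in the 5xFAD libraries, these ratios were 1.01 and 0.971 in 5xFAD;Cxcr6-/- and 0.8003 and 0.792 in 5xFAD libraries. With the largest TRAV9 clonotype of each library left out instead, they were 0.931 and 0.886 in 5xFAD;Cxcr6-/- and again 0.8003 and 0.792 in 5xFAD libraries. Other clonotypes kept their largest in that setting, and in the 5xFAD libraries in both settings, which lowers these ratios by construction.

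**Figure D1:**
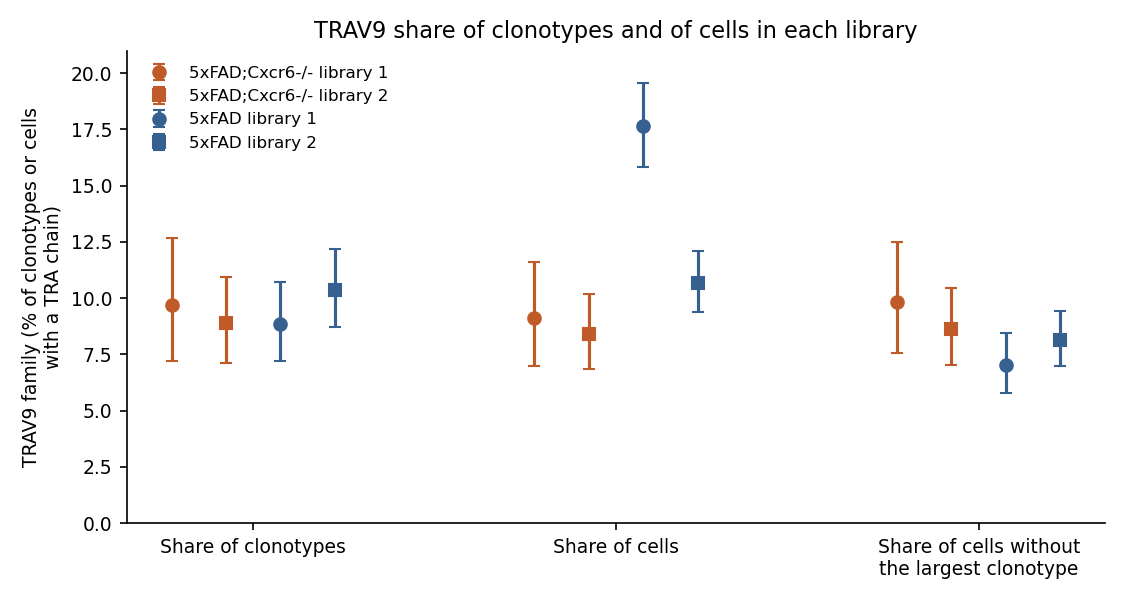
Share of the TRAV9 family (y axis, %) among clonotypes with a TRA chain, among cells with a TRA chain, and among cells without the largest clonotype of each library. Points are single libraries and bars are 95% Clopper-Pearson intervals; the first 5xFAD library reaches 17.6% of cells with all clonotypes counted and 7.02% without the largest.

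In both 5xFAD libraries the largest clonotype of all was a TRAV9 clonotype with a TRBV16 beta chain. In the first, TRAV9D-3 joined to TRAJ22 was paired with TRBV16 joined to TRBJ2-1 in 254 cells, or 12.3% of all cells of the library, and the next clonotype of any kind had 34 cells. In the second, TRAV9-1 joined to TRAJ38 was paired with TRBV16 joined to TRBJ2-4 in 76 cells, or 3.01% of cells, and the next had 68. A TRA chain was listed for 189 of the 254 cells and for 57 of the 76, so 25.6% and 25% of their cells belong to the clonotype through the beta chain alone. In the 5xFAD;Cxcr6-/- libraries the largest clonotypes, of 51 and 31 cells, were not TRAV9, and the largest TRAV9 clonotypes had 5 and 8 cells.

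The CDR3 sequences of these clonotypes are shown because they carry the difference between cells and clones, and 3 other clonotypes are set beside them. Capitals in a TRA sequence mark bases that match neither the germline V nor the germline J segment, and capitals in a TRB sequence mark bases that match neither V nor J, so they include the D segment.
5xFAD library 1, 254 cells, TRA: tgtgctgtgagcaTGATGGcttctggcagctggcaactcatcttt
5xFAD library 1, 254 cells, TRB: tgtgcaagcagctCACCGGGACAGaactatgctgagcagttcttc
5xFAD library 2, 76 cells, TRA: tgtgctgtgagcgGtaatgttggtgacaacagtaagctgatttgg
5xFAD library 2, 76 cells, TRB: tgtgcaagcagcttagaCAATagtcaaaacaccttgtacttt
5xFAD;Cxcr6-/- library 2, 8 cells, TRA: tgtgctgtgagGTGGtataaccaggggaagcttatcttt
5xFAD;Cxcr6-/- library 1, 4 cells, TRA: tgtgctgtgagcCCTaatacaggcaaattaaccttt
5xFAD library 1, 4 cells, TRA: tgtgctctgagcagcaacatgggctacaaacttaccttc
The alpha CDR3 of both largest clonotypes was 15 residues long, but the chains shared neither the V segment, the J segment nor the joined bases. The first held 6 unmatched bases at its join and the second held 1. Each of these alpha chains was found in 1 library, within 1 clonotype, and so was each beta chain. The 8-cell clonotype of the second 5xFAD;Cxcr6-/- library used TRAV9-1 with TRAJ23 and listed beta chains with TRBV29 and with TRBV3 in all 8 cells. The first 4-cell clonotype shown joined TRAV9-1 to TRAJ27 and was paired with TRBV29. The second joined TRAV9N-4 to TRAJ9 with 0 unmatched bases and was paired with TRBV17.

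The remaining large TRAV9 clonotypes were small. In the first 5xFAD;Cxcr6-/- library the largest had 5 cells, in 2 of which TRAV9D-1 joined to TRAJ9 was listed beside a TRAV7D-4 chain, and the third had 3 cells with TRAV9D-3, TRAJ7 and TRBV16. In the second, clonotypes of 4 cells each used TRAV9N-4 with TRAJ37 and TRBV14, and TRAV9-2 with TRAJ34 and TRBV29. The first 5xFAD library had a clonotype of 6 cells with TRAV9N-4, TRAJ33 and TRBV29. The second had clonotypes of 7 cells with TRAV9N-4, TRAJ38 and TRBV15 and of 6 cells with TRAV9-4, TRAJ43 and TRBV19. Every named clonotype outside the pair of largest ones thus held at most 8 cells, and together they used 6 TRAV9 segments.

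Mean clonotype size followed the same pattern. TRAV9 clonotypes averaged 1.34 and 1.25 cells in the 5xFAD;Cxcr6-/- libraries, against 3.86 and 1.902 cells in the 5xFAD libraries, and the median was 1 cell in each library. Other clonotypes averaged 1.37 and 1.31 cells in the 5xFAD;Cxcr6-/- libraries and 1.46 and 1.70 in the 5xFAD libraries. Without the largest clonotype, which was TRAV9 only in the 5xFAD libraries, TRAV9 clonotypes averaged 1.34 and 1.25 cells in 5xFAD;Cxcr6-/- and 1.17 and 1.34 in 5xFAD libraries. Without the largest TRAV9 clonotype they averaged 1.26 and 1.16 cells in 5xFAD;Cxcr6-/- libraries and, as before, 1.17 and 1.34 in 5xFAD libraries. Clonotype size grows with the number of cells sampled, so the values were also computed as hypergeometric expectations at 765 cells, the number in the smallest library. They were then 1.34 and 1.18 cells in 5xFAD;Cxcr6-/- and 3.51 and 1.58 in 5xFAD libraries, and 1.34 and 1.18 against 1.08 and 1.12 without the largest clonotype.

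Expansion in the sense of 2 or more cells was seen in 8 of 47 and 9 of 80 TRAV9 clonotypes of the 5xFAD;Cxcr6-/- libraries, or 17.0% and 11.25%. It was seen in 11 of 94 and 29 of 132 in the 5xFAD libraries, or 11.7% and 22.0%, and the genotypes overlapped. Among other clonotypes the shares were 12.3% and 11.2% in 5xFAD;Cxcr6-/- and 13.4% and 18.7% in 5xFAD libraries. TRAV9 clonotypes exceeded the others in 3 of 4 libraries, by 1.58 ± 2.95 percentage points (SD, n = 4; exact sign-flip permutation p = 0.375, with 0.125 the smallest p that 4 libraries can give). Without invariant natural killer T clonotypes TRAV9 exceeded the others in 2 of 4 libraries, by a mean of 0.172 percentage points. At 765 cells the expected shares for TRAV9 were 17.0% and 9.91% in 5xFAD;Cxcr6-/- and 8.57% and 11.5% in 5xFAD libraries. For other clonotypes they were 12.3% and 9.33% in 5xFAD;Cxcr6-/- and 11.4% and 14.7% in 5xFAD libraries. At that depth TRAV9 thus lay above the others in both 5xFAD;Cxcr6-/- libraries and below them in both 5xFAD libraries, a contrast that was not tested. In edgeR's quasi-likelihood fit with the library as a block, TRAV9 use in expanded over single clonotypes had a log2 fold change of 0.14 (SE 0.22, adjusted p = 0.663), where 5.26% of the 19 families were called, namely TRAV11. The interaction with genotype was 0.10 (SE 0.44, adjusted p = 0.917 in edgeR), in a comparison where 5.26% of families were called, namely TRAV1.

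**Figure D2:**
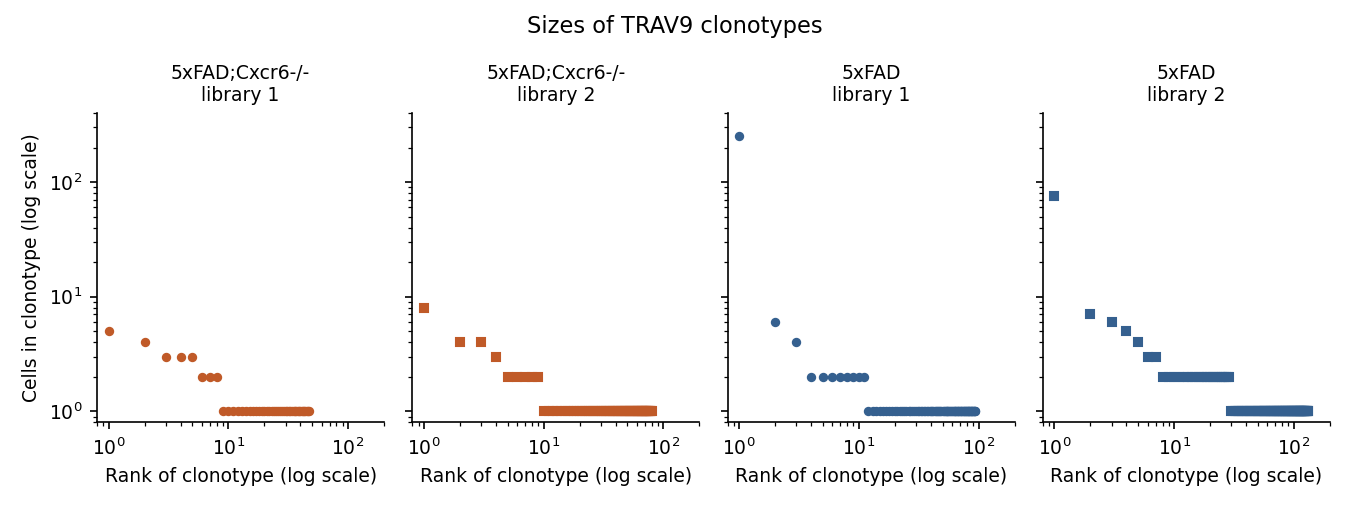
Size of each TRAV9 clonotype (y axis, cells, log scale) against its rank within the library (x axis, log scale). Each point is 1 clonotype; single clonotypes of 254 and 76 cells stand apart in the 5xFAD libraries, while no TRAV9 clonotype of the 5xFAD;Cxcr6-/- libraries exceeds 8 cells.

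Among the segments, TRAV9D-3 was the most frequent in every library. It was carried by 12 and 19 clonotypes in the 5xFAD;Cxcr6-/- libraries and by 27 and 46 in the 5xFAD libraries, 104 in all with 309 cells. TRAV9-4 had 67 clonotypes, with 6 and 17 in 5xFAD;Cxcr6-/- and 21 and 23 in 5xFAD libraries. TRAV9-2 had 53, with 10 and 10 in 5xFAD;Cxcr6-/- and 9 and 24 in 5xFAD libraries. TRAV9-1 had 52, with 5 and 15 in 5xFAD;Cxcr6-/- and 12 and 20 in 5xFAD libraries. These segments changed places in rank between libraries, and no library lacked any of them.

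TRAV9N-4 had 50 clonotypes, with 11 and 13 in the 5xFAD;Cxcr6-/- libraries and 12 and 14 in the 5xFAD libraries. TRAV9D-1, near-identical to TRAV9-1, had 23, with 4 and 6 in 5xFAD;Cxcr6-/- and 9 and 4 in 5xFAD libraries. TRAV9D-2 had 6 and TRAV9D-4 had 2. TRAV9D-4 was not seen in a 5xFAD;Cxcr6-/- library, which allows a share of up to 0.619% and 0.333% of clonotypes there, and it was seen in 1 clonotype of each 5xFAD library, so no difference was detectable at this depth. TRAV9D-2 was not seen in the second 5xFAD;Cxcr6-/- library with the same limit of 0.333%.

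Of the 8 segments, 6 had the 10 clonotypes needed for a test between genotypes, and none of these passed it. Over all 152 V and J segments tested, 1.32% were called at an adjusted p under 0.05, namely TRAV11 and TRAJ18, and none was a TRAV9 segment. At an unadjusted p under 0.05 edgeR gave 9 segments, and at an adjusted p under 0.05 DESeq2 called 0. The widest contrasts were in TRAV9N-4, with a log2 fold change of 0.63 (SE 0.43, adjusted p = 0.751 in edgeR) for 5xFAD;Cxcr6-/- over 5xFAD libraries, and TRAV9D-3 with −0.47 (SE 0.29, adjusted p = 0.751). As a share of clonotypes, TRAV9N-4 was 2.27% and 1.44% in 5xFAD;Cxcr6-/- and 1.13% and 1.10% in 5xFAD libraries, and TRAV9D-3 was 2.47% and 2.11% against 2.54% and 3.61%. For both the genotypes did not overlap, whereas they overlapped for TRAV9-1, TRAV9-2, TRAV9-4 and TRAV9D-1. Even without overlap, an exact permutation of 2 libraries against 2 cannot give a p below 0.333. How many of the 152 segments lacked overlap was not computed. The log2 fold changes were 0.37 (SE 0.74) for TRAV9D-1, −0.18 (SE 0.36) for TRAV9-4, 0.07 (SE 0.43) for TRAV9-1 and 0.03 (SE 0.48) for TRAV9-2, with edgeR adjusted p of 0.939 to 0.984. The signs for TRAV9-1 and TRAV9-2 were reversed under TMM scaling, at −0.07 and −0.11.

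**Figure D3:**
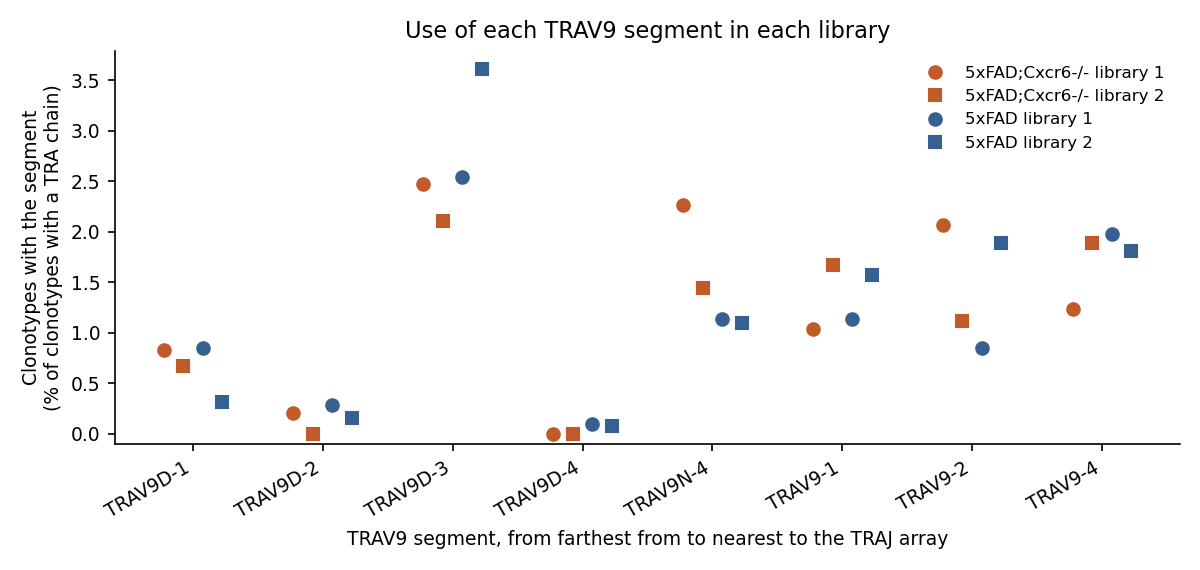
Clonotypes with each TRAV9 segment as a share of all clonotypes with a TRA chain (y axis, %), with segments in order along the chromosome. Points are single libraries; TRAV9D-3 is the highest in each library and TRAV9N-4 is higher in both 5xFAD;Cxcr6-/- libraries, a difference that did not pass the test.

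In each library TRAV9 chains had a slightly lower mean TRAJ number than other chains, that is, their J segments lay farther from the V genes. The mean TRAJ number was 26.4 and 29.8 in the 5xFAD;Cxcr6-/- libraries and 28.6 and 27.9 in the 5xFAD libraries for TRAV9 chains, each distinct chain of a clonotype counted once. For other chains without the invariant ones it was 30.4 and 30.9 in the 5xFAD;Cxcr6-/- libraries and 29.2 and 29.8 in the 5xFAD libraries. TRAV9 was lower in 4 of 4 libraries, by a mean difference of −1.87 ± 1.49 (SD, n = 4; exact two-sided sign-flip permutation p = 0.125, the smallest possible, and 0.271 after Benjamini-Hochberg adjustment over 13 features). The SD between chains within a library was 12.6 to 14.5 for TRAV9. Between genotypes the difference in TRAV9 chains was −0.165 (exact permutation p = 1).

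This family average covered segments that differed widely among themselves, with the segment nearest to the TRAJ array at the top. TRAV9-4, the nearest, had a mean TRAJ number of 39.2 and 42.9 in the 5xFAD;Cxcr6-/- libraries and 38.7 and 38.96 in the 5xFAD libraries. TRAV9D-3, a far segment whose identical copy TRAV9N-3 lies 923 kb from the TRAJ array, had 20.3 and 23.3 in the 5xFAD;Cxcr6-/- libraries and 22.0 and 21.5 in the 5xFAD libraries. All 4 values of TRAV9-4 lay above all 4 of TRAV9D-3. Of TRAV9-4 chains, 36 of 67 used TRAJ58 to TRAJ40 and 3 used TRAJ20 to TRAJ2, whereas of TRAV9D-3 chains 14 of 104 used the near range and 52 used the far one.

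TRAV9-4 exceeded the other TRAV9 chains of the same library by 14.4 ± 1.64 TRAJ positions, and TRAV9D-3 differed from the other TRAV9 chains by −8.92 ± 0.747 (SD, n = 4 each). Both held in 4 of 4 libraries, with an exact sign-flip permutation p of 0.125, the smallest possible, and 0.375 after adjustment over 6 segments. The segments in between had means of 29.2 for TRAV9-1, 28.6 for TRAV9-2, 25.6 for TRAV9N-4 and 28.3 for TRAV9D-1, whose order did not hold from library to library. Within the family the mean did not fall steadily with distance, as TRAV9D-1 is the farthest segment, at 1362 kb, and TRAV9N-4 lies at 860 kb. Over 75 TRAV segments, 6 of them TRAV9, the mean TRAJ number tended to fall with the distance to the TRAJ array (Spearman rho −0.74, a description over segments that share the libraries). The 10 other segments nearer than TRAV9-4 averaged 44.7 over 515 chains, and the 59 farther ones averaged 27.4 over 2795.

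**Figure D4:**
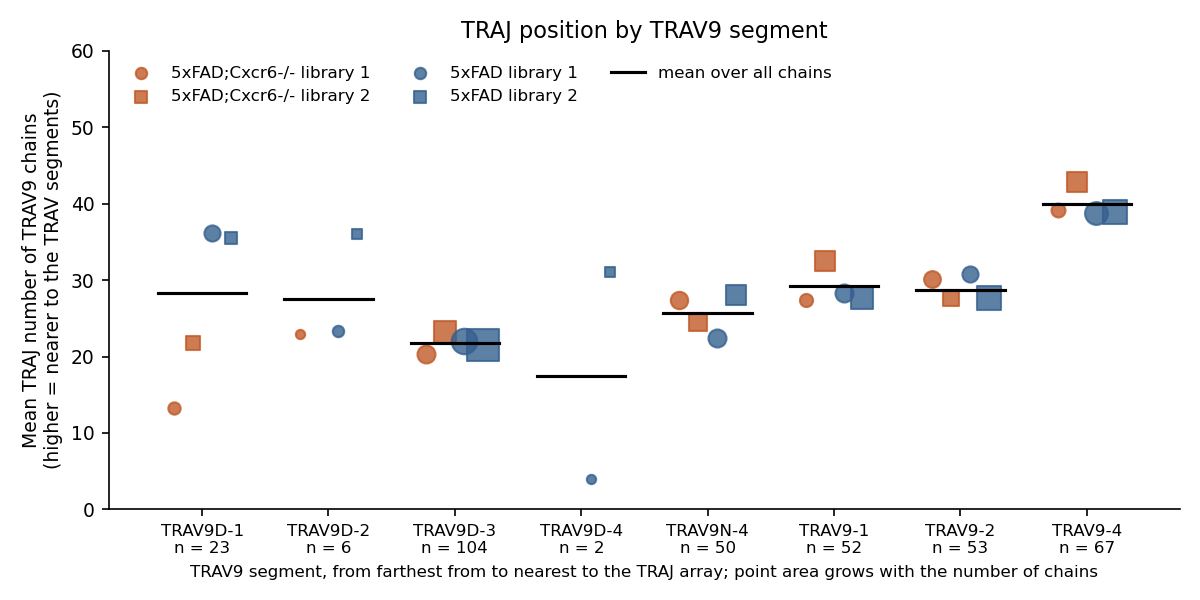
Mean TRAJ number of the chains of each TRAV9 segment (y axis), with segments ordered from the farthest to the nearest to the TRAJ array. Each point is 1 library with an area that grows with its number of chains, and black lines are means over all chains; TRAV9-4 lies at 39.9 and TRAV9D-3 at 21.8, and the points of the small segments scatter widely.

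No single TRAJ segment passed the test of TRAV9 chains against other chains, where 0% of 43 segments were called. In edgeR's quasi-likelihood test 3 segments had an unadjusted p under 0.05. At an adjusted p under 0.05 DESeq2 called 0. The most used segments among TRAV9 chains were TRAJ22, TRAJ31, TRAJ23, TRAJ49 and TRAJ7, with mean shares of 5.32%, 5.20%, 5.17%, 4.67% and 4.42% over the 4 libraries. TRAJ7 made up 8.16% and 2.5% of TRAV9 chains in the 5xFAD;Cxcr6-/- libraries and 1.06% and 5.97% in the 5xFAD libraries. It made up 1.73% and 1.81% of other chains in the 5xFAD;Cxcr6-/- libraries and 1.36% and 1.43% in the 5xFAD libraries. Its share was higher among TRAV9 chains in 3 of 4 libraries, with a log2 fold change of 1.42 (SE 0.49, adjusted p = 0.204 in edgeR) over 15 chains. For TRAJ22, TRAJ31, TRAJ23 and TRAJ49 the log2 fold change was −0.37, 0.22, 0.09 and 0.37, each with an edgeR adjusted p of 0.916. The interaction with genotype was called for 0% of TRAJ segments, with 1 at an unadjusted p under 0.05 in edgeR.

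Beta chain partners of TRAV9 clonotypes did not differ detectably from those of other clonotypes, with 0% of 22 TRBV segments called. At an unadjusted p under 0.05 edgeR gave 0 segments, and at an adjusted p under 0.05 DESeq2 also called 0. The most frequent partners were TRBV3, the segment listed as TRBV12-2+TRBV13-2, TRBV12-1, TRBV16 and TRBV19, with mean shares of 8.67%, 8.55%, 8.10%, 7.30% and 7.19%. TRBV12-1 had 8.70% and 7.79% among TRAV9 clonotypes of the 5xFAD;Cxcr6-/- libraries and 6.45% and 9.45% in the 5xFAD libraries. Among other clonotypes it had 4.49% and 4.23% in the 5xFAD;Cxcr6-/- libraries and 6.84% and 5.69% in the 5xFAD libraries, and the log2 fold change was 0.57 (SE 0.31, adjusted p = 0.935 in edgeR). TRBV3, TRBV12-2+TRBV13-2 and TRBV19 had log2 fold changes of −0.22, −0.02 and −0.21 with the same adjusted p.

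TRBV16, the partner in both of the largest 5xFAD clonotypes, did not pass the test for TRAV9 clonotypes against other clonotypes. It was paired with 3 of 47 and 4 of 80 TRAV9 clonotypes of the 5xFAD;Cxcr6-/- libraries and with 6 of 94 and 14 of 132 of the 5xFAD libraries. Of these, 1 and 4 were single cells in the 5xFAD;Cxcr6-/- libraries and 5 and 11 in the 5xFAD libraries. Among clonotypes with a TRB chain, TRBV16 had 6.52% and 5.19% in the TRAV9 clonotypes of 5xFAD;Cxcr6-/- and 6.45% and 11.0% of 5xFAD libraries. In other clonotypes it had 6.48% and 6.40% in 5xFAD;Cxcr6-/- and 6.98% and 7.51% in 5xFAD libraries. The log2 fold change of TRAV9 over other clonotypes was 0.17 (SE 0.30, adjusted p = 0.935 in edgeR). The interaction with genotype was called for 0% of TRBV segments, with 1 of 22 at an unadjusted p under 0.05 in edgeR.

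**Figure D5:**
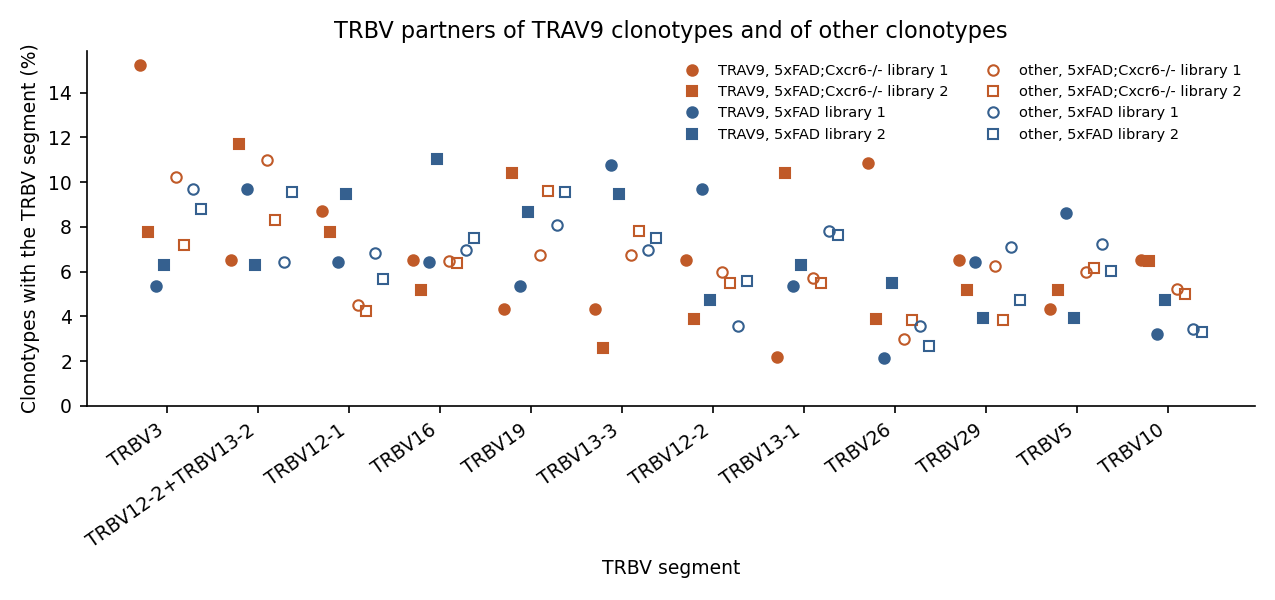
Share of clonotypes with each of the 12 TRBV segments most frequent among TRAV9 clonotypes (y axis, %). Filled points are TRAV9 clonotypes and open points are other clonotypes without invariant natural killer T chains, 1 point per library; the TRAV9 points scatter around the open ones, and no segment passed the test.

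The alpha CDR3 of TRAV9 chains was about as long as that of other chains, and its mean net charge was higher in each library. Mean length was 13.7 and 13.8 residues in the 5xFAD;Cxcr6-/- libraries and 13.6 and 13.6 in the 5xFAD libraries, where other chains had 13.7 and 13.6 in 5xFAD;Cxcr6-/- and 13.6 and 13.7 in 5xFAD libraries. Net charge, counted without the first and last 3 residues, was 0.837 and 0.725 in the 5xFAD;Cxcr6-/- libraries and 0.638 and 0.769 in the 5xFAD libraries. In other chains it was 0.470 and 0.462 in 5xFAD;Cxcr6-/- and 0.495 and 0.445 in 5xFAD libraries. All 4 TRAV9 values lay above all 4 values of other chains, with a mean difference of 0.274 ± 0.0971 (SD, n = 4; exact sign-flip permutation p = 0.125, the smallest possible, and 0.271 after adjustment over 13 features).

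The V segment itself encodes the first CDR3 residues, so charge was also counted only over residues past the bases matching the germline V. The difference was then 0.199 ± 0.104 and again positive in 4 of 4 libraries (SD, n = 4; exact sign-flip permutation p = 0.125). By segment, mean charge was lowest in TRAV9-4, at 0.582, and 0.923 in TRAV9-1 and 0.913 in TRAV9D-1, over 67, 52 and 23 chains. On the Kyte-Doolittle scale TRAV9 chains were less hydrophilic by 0.179 ± 0.105 in 4 of 4 libraries (exact permutation p = 0.125), and by 0.115 ± 0.125 in 3 of 4 when only residues past the V segment were counted (SD, n = 4; exact permutation p = 0.25). Between genotypes, TRAV9 charge differed by 0.0774 and CDR3 length by 0.124 residues, with exact permutation p of 0.667 and 0.333 over 2 libraries each. With single libraries left out, these differences lay between 0.0122 and 0.143 for charge and between 0.0709 and 0.177 for length.

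Bases at the join that matched neither germline segment averaged 3.73 and 2.90 in TRAV9 chains of the 5xFAD;Cxcr6-/- libraries and 2.93 and 3.07 of the 5xFAD libraries. In other chains they averaged 2.85 and 2.85 in 5xFAD;Cxcr6-/- and 2.87 and 2.84 in 5xFAD libraries. TRAV9 was higher in 4 of 4 libraries, by 0.307 ± 0.397 (SD, n = 4; exact sign-flip permutation p = 0.125), and the gap was widest in the first 5xFAD;Cxcr6-/- library. Joins without any unmatched base made up 0% and 11.25% of TRAV9 chains in the 5xFAD;Cxcr6-/- libraries and 13.8% and 11.9% in the 5xFAD libraries. In other chains they made up 13.3% and 16.03% in 5xFAD;Cxcr6-/- and 14.1% and 16.5% in 5xFAD libraries, so TRAV9 was lower in 4 of 4 (exact sign-flip permutation p = 0.125).

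TRAV9 alpha chains were mostly private to a library. Of 337 distinct TRAV9 CDR3 amino-acid sequences, 11 occurred in 2 libraries and 0 in 3 or more. Of the 11, 8 occurred in both genotypes, and 4 used the same V segment and the same nucleotides in both libraries. The alpha chain of neither largest 5xFAD clonotype was among them, and the shared sequences belonged to clonotypes that summed to 2 to 4 cells. A second productive TRA chain was listed in 14 of 59 and 8 of 95 TRAV9 cells of the 5xFAD;Cxcr6-/- libraries and in 21 of 292 and 25 of 220 of the 5xFAD libraries. The first 5xFAD;Cxcr6-/- library stood apart with 23.7% of TRAV9 cells, against 8.42% in the second and 7.19% and 11.4% in the 5xFAD libraries. In 2 of its 14 cells the second chain was also TRAV9. Other cells were not compared, so a trait of TRAV9 cells cannot be told apart from one of the library.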

How the data were processed

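T cell receptor libraries of sorted brain CD45+ cells were analysed, 2 of each genotype. The 4 expression libraries were not analysed here. The authors deposited contig tables whose values are raw read counts and UMI counts, per the file headers, made with Cell Ranger 6.0 on mm10, per the submitters' processing notes. The receptor reference is not given in the sources used here. A clonotype is the deposited one, a TRAV9 clonotype holds at least 1 TRAV9 contig, and its size is all of its barcodes. Cells with 2 TRB chains, which can be doublets, were kept in the main values and left out in an alternative.

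Single values were compared by exact permutation over libraries, or by sign flips of within-library differences. Clonotype counts were tested with edgeR 4.0.16 (quasi-likelihood, log total as offset, features with at least 10 clonotypes, Benjamini-Hochberg adjustment, threshold 0.05), with DESeq2 1.42.0 as an alternative, under R 4.3.3. The SE is the absolute fold change over the square root of F. Junction matching and clonotype rebuilding ran on simulated data first, and the permutation tests on values with known answers. The edgeR test ran on simulated counts after the fits to the data. Clonotype sizes at equal depth are hypergeometric expectations. Unmatched bases come from exact matching to GENCODE vM21 transcripts, which undercounts added bases that match by chance.

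Named were all TRAV9 segments with a contig, the 5 most used TRAJ and TRBV segments, any of these called against other clonotypes (none was), the 3 largest TRAV9 clonotypes of each library, CDR3s in 3 or more libraries, and the 3 families nearest in clonotype share. TRAV11, TRAJ18 and TRAV1 were called in other fits and were named after their values were seen. The members, lists and tests were chosen with earlier results of these data known. The same-numbered libraries are not stated to be paired.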

Additional observations from a re-analysis of the deposited data

Results flagged for a closer look

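TRAV9 clonotypes were smaller on average than other clonotypes in both 5xFAD;Cxcr6-/- libraries and larger in both 5xFAD libraries. The mean number of cells per TRAV9 clonotype minus that of other clonotypes was −0.0340 and −0.0594 in the 5xFAD;Cxcr6-/- libraries and 2.40 and 0.205 in the 5xFAD libraries, so the genotypes differed by −1.35 cells. The difference was not tested. Without the largest clonotype of each library, TRAV9 clonotypes averaged 1.34 and 1.25 cells in 5xFAD;Cxcr6-/- libraries, against 1.26 and 1.27 for other clonotypes there. In 5xFAD libraries they then averaged 1.17 and 1.34 cells, against 1.46 and 1.70 for other clonotypes. The clonotype left out was TRAV9 in both 5xFAD libraries and in neither 5xFAD;Cxcr6-/- library. With the largest TRAV9 clonotype of each library left out instead, TRAV9 averaged 1.26 and 1.16 cells in 5xFAD;Cxcr6-/- libraries, against 1.37 and 1.31 for others. In 5xFAD libraries the values stayed 1.17 and 1.34 against 1.46 and 1.70, so TRAV9 was then lower in each library. Other clonotypes kept their largest here, of 51 and 31 cells in 5xFAD;Cxcr6-/- and 34 and 68 in 5xFAD libraries. Leaving out the largest on the TRAV9 side alone lowers its mean by construction, so this order says nothing about TRAV9.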

How the results depend on the processing

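Of 189 values recomputed under alternatives, 149 kept their direction and side of the threshold or stayed within the spread. Some of these could not change. A replicate block leaves a difference of means as it is, and the fits over families were the same without the filter. The genotype difference in the TRAV9 share of cells, −5.40 percentage points, became 1.64 without the largest clonotype and 0.727 without the largest TRAV9 clonotype, and lay between −8.87 and −1.93 with single libraries left out. The difference in cells per clonotype, −1.59, became 0.0413 without the largest clonotype and −0.0412 without the largest TRAV9 clonotype. It became −1.28 at equal depth, and lay between −2.57 and −0.606 with single libraries left out. Equal depth, the share of expanded clonotypes without invariant ones, and charge and hydrophobicity past the V segment were chosen after seeing the data. The share of clonotypes differed by −0.669 with clonotypes rebuilt from shared chains, −0.796 with at least 3 UMIs and −1.71 without invariant clonotypes. Counting cells in place of clonotypes turned the genotype differences in CDR3 length, hydrophobicity and unmatched bases to −0.537, −0.372 and −0.230. Leaving out each library in turn moved the share of clonotypes between −1.08 and 0.425, mean TRAJ number between −1.85 and 1.52, hydrophobicity between −0.0653 and 0.161, unmatched bases between −0.0963 and 0.738, and the TRAV9 log2 fold change between −0.17 and 0.051. The number of families called between genotypes became 0 with cells counted or without invariant natural killer T clonotypes, and 0 to 1 with single libraries left out. The number of segments called became 0 under DESeq2, with cells counted or without invariant clonotypes, and 0 to 2 with single libraries left out. Log2 fold changes were −0.068, −0.47 and −0.13 for TRAV9-1 under TMM scaling, with cells counted and without invariant clonotypes, and −0.11 and −0.13 for TRAV9-2 under TMM scaling and without invariant clonotypes. With single libraries left out they ranged from −0.41 to 0.34 for TRAV9-1, −0.37 to 0.77 for TRAV9-2, −0.60 to 0.0018 for TRAV9-4, −0.23 to 1.17 for TRAV9D-1, −0.68 to −0.18 for TRAV9D-3 and 0.37 to 1.02 for TRAV9N-4, and TRAV9D-3 had −1.98 with cells counted. For expanded over single clonotypes, the families called became 0 under DESeq2, 3 under TMM scaling and 0 without invariant clonotypes, and the TRAV9 log2 fold change became −0.28 under TMM scaling, −0.34 with expansion from 3 cells and −0.025 without invariant clonotypes. Counted by clonotype and with no library left out, the adjusted p of TRAV9 for genotype stayed between 0.832 and 0.991 in edgeR and DESeq2. For expansion, with single libraries left out as well, it stayed between 0.458 and 0.981. The causes of these changes were not tested. With the replicate number as a block, the share of cells differed by −5.40 percentage points, given with no test, and the share of clonotypes by −0.325 (exact permutation p = 1, where 2 pairs cannot give a p below 0.5), the TRAV9 log2 fold change was −0.09 and the calls were TRAV11 among families and TRAV11 and TRAJ18 among segments, as without it. Same-numbered libraries correlated at 0.290 over 19 families in their deviations from the genotype means. With 47 and 80 TRAV9 clonotypes in the 5xFAD;Cxcr6-/- libraries, differences between segments were limited by the number of clonotypes.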

Other observations

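TRAV9D-1 chains, in 23 clonotypes, had a mean TRAJ number of 13.25 and 21.8 in the 5xFAD;Cxcr6-/- libraries (4 and 6 chains) and 36.1 and 35.5 in the 5xFAD libraries (9 and 4 chains). The genotypes did not overlap and differed by −18.3 (exact two-sided permutation p = 0.333, the smallest possible, and 1 after adjustment over 6 segments). The near-identical TRAV9-1 had 27.4 and 32.5 in 5xFAD;Cxcr6-/- and 28.3 and 27.7 in 5xFAD libraries, which overlapped. The segment was picked out after its values were seen.

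Among the clonotypes sharing a CDR3 across libraries, TRAV9-1 in 1 library was matched by TRAV9D-1 in the other for chains with TRAJ40 and with TRAJ17, with identical CDR3 nucleotides each time. The same held across the 2 sequence groups for TRAV9-1 and TRAV9-4 with TRAJ31, and for TRAV9-4 and TRAV9D-1 with TRAJ49. The germline segments TRAV9-1, TRAV9D-1 and TRAV9-4 have the same 13 bases at the start of CDR3, so CDR3 nucleotides alone do not separate them. Counted over TRA chains of every V family, the CDR3 amino-acid sequence of the 6-cell TRAV9N-4 and TRAJ33 clonotype of the first 5xFAD library occurred in 3 libraries, whereas those of the 254-cell and 76-cell clonotypes occurred in 1 each.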
